A study of Mus musculus with 12 samples.

Results

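Motile cilia of the nasal lining beat to move mucus towards the throat. Each is built on an axoneme of microtubules, along which outer and inner dynein arms produce the stroke, while radial spokes, the central pair and the dynein regulatory complex time it. Foxj1 is the transcription factor that switches on this gene programme in multiciliated cells, together with factors of the RFX family. The rows followed here were 5 motile cilium genes, namely Foxj1, Tppp3, Dnah9, Dnah11 and Ccdc39, and 2 partner rows, Gm12296 and Ttc14, whose exons lie on the other strand of Dnah9 and Ccdc39. They were chosen by gene symbol, with earlier results of these data known. They make up 7 of the 55487 rows of the count table, and all 7 were among the 13181 rows that passed the filter on low counts. Cdca7l, which lies opposite Dnah11, was read beside them and is not counted among the 7.

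The counts came from RNA of nasal tissue, labelled as nasal epithelium, of C57BL/6 male mice aged 6 weeks, in a study whose title names diesel particles and inflammatory dysfunction of the nose. There were 4 libraries of mice given KDP20 and labelled day 10 (replicates 1, 2, 3 and 5), 4 given KDP20 and labelled day 5 (replicates 5, 6, 7 and 8), and 4 given the vehicle, PBS, and labelled day 10 (replicates 2, 4, 5 and 6). Values by library keep this order of groups and of replicates throughout. Nothing in the labels states that the libraries came from separate animals, and p-values therefore reflect the variation among these libraries, which may be technical. Vehicle was labelled day 10 alone, so day 5 against vehicle differs in exposure and day together, and the 3 comparisons share their libraries in pairs.

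Libraries held 1658420 to 3227138 counts, and levels are in CPM, counts divided by the TMM-scaled library size, with 3 counts equal to between 0.930 and 1.81 CPM before scaling. Intervals and this floor cover counting error alone. The row CT010467.2, a gene model named by its clone, held 11.2%, 25.5%, 17.9% and 22.9% of counts in the KDP20 day 10 libraries, against 9.69% to 12.6% in KDP20 day 5 and 7.25% to 10.1% in vehicle. Each of these shares has a 95% Wilson interval no wider than 0.0658 points on either side. Its high libraries, KDP20 day 10 replicates 2, 3 and 5, were also the ones in which rows of high GC content stood above their mean. The slope was 0.19 to 0.35 on the log2 scale for every 10 points of GC there, against -0.05 in KDP20 day 10 replicate 1, -0.12 to -0.03 in KDP20 day 5 and -0.14 to -0.11 in vehicle. For rows called at day 10, values without these 3 libraries are given beside the calls, from fits in which 0 rows passed in edgeR (5.77% of rows against vehicle and 7.23% against day 5 at an unadjusted p under 0.05). Of markers of other cell types, the own rows of 9 sustentacular and gland genes summed to 153 to 429 CPM in KDP20 day 10, 345 to 911 CPM in KDP20 day 5 and 458 to 897 CPM in vehicle, and those of 10 airway secretory genes to 484 to 566, 411 to 501 and 474 to 720 CPM. The 12 olfactory neuron genes summed to 304 to 395, 291 to 443 and 288 to 413 CPM in the same order. The 10 immune genes summed to 217 to 274, 211 to 229 and 180.1 to 218 CPM, with S100a8 and Ly6g at 0 in every library. The 8 basal and squamous genes summed to 93.1 to 182, 81.3 to 103 and 55.2 to 93.1 CPM, and the 9 muscle genes to 141 to 209, 94.8 to 148 and 103 to 134 CPM. The rows opposite these marker genes, 14 in all, moved otherwise in places. The 3 rows opposite olfactory neuron genes summed to 8756 to 10392, 8623 to 11536 and 8697 to 11931 CPM in the same order. The row opposite an airway secretory gene had 17909 to 22068, 23096 to 29564 and 21102 to 27597 CPM. That opposite a sustentacular or gland gene had 26.1 to 50.2, 32.2 to 54.4 and 49.4 to 73.0 CPM. The 3 opposite immune genes summed to 17.2 to 38.3, 19.1 to 52.7 and 25.7 to 49.5 CPM. The rows opposite muscle genes summed to 37.7 to 1113, 27.1 to 1853 and 21.2 to 206 CPM. That opposite a basal gene had 379.8 to 595, 395 to 1085 and 304 to 534 CPM. For immune genes the median log2 difference of day 10 from vehicle was -0.49 in opposite rows and 0.30 in own rows. Of the 13 opposite rows tested, edgeR called 3 for day 10 against vehicle, beside 7.08% of all tested rows. It called 2 for day 5 against vehicle, beside 0.66%, and 3 for day 10 against day 5, beside 10.1%. The same shares stand beside the own rows. For day 10 against vehicle edgeR called 1 of 9 tested own rows of sustentacular and gland genes. It also called 1 of 4 basal and squamous and 1 of 2 muscle rows, and 0 in the other lists. Own rows had 0 calls for day 5 against vehicle. For day 10 against day 5 they had 1 in each of these lists and 1 in airway secretory genes. The part of these markers in the results below was not tested.

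Where the genes lie decides what a row can hold. In GENCODE M21 on the build GRCm38, Foxj1 occupies chr11:116330704-116335399 and Tppp3 chr8:105467493-105471526, both on the minus strand and neither with an exon of another gene across from it. Dnah9 (chr11:65831282-66168551, minus) and Gm12296 (chr11:66168035-66301237, plus) stand head to head and share 495 exon bases, chr11:66168057-66168551. These are 3.10% of the exon bases of Dnah9 and 15.4% of those of Gm12296. Of the 495, 411 are coding in Dnah9. Dnah11 (chr12:117877982-118199043, minus) and Cdca7l (chr12:117804289-117878706, plus) stand tail to tail and share 642 bases, chr12:117877982-117878623. These are 4.44% of the exon bases of Dnah11 and 19.7% of those of Cdca7l. Ccdc39 (chr3:33812362-33844310, minus) and Ttc14 (chr3:33799832-33814860, plus), also tail to tail, share 1256 exon bases in 4 blocks between 33812362 and 33814795, or 16.9% of Ccdc39 and 11.9% of Ttc14. The remaining 15454 exon bases of Dnah9, 13816 of Dnah11 and 6187 of Ccdc39 face no exon of their partner. The strand setting of the counting is not given in the sources used here, so a read in a shared stretch cannot be assigned to either gene from these counts. Whether a row holds reads of its own strand is not known for any row.

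The windows around the starts of Dnah9 and Gm12296 are printed because both starts lie within the stretch where the pair meets, and those of Dnah11 and Ccdc39 because these are the rows that were lower at day 10 than at day 5. Each runs from 250 bases before to 50 bases after the start, 5′ to 3′ on the strand of the gene, from RefSeq on GRCm38.p6. The table held windows for 5 of the 8 rows, not for Foxj1, Tppp3 and Ttc14. Capitals mark matches, on either strand, to the RFX core words GTTGCC and GTTGCT, to their variants GTTACC and GTTACT, or to the forkhead core word TGTTTA, and no match overlapped another.
Dnah9, chr11:66168502-66168801, minus: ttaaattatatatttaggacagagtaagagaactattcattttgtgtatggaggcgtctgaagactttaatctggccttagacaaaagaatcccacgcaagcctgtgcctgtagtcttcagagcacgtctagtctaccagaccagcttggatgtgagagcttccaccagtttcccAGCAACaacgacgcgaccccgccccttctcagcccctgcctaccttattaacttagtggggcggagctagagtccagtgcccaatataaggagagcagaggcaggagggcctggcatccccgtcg
Gm12296, chr11:66167785-66168084, plus: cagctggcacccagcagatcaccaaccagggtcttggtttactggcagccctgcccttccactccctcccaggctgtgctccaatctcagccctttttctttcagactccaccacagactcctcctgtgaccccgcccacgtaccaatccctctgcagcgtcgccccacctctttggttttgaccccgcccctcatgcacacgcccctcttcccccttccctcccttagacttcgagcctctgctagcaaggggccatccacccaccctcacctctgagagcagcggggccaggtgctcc
Dnah11, chr12:118198994-118199293, minus: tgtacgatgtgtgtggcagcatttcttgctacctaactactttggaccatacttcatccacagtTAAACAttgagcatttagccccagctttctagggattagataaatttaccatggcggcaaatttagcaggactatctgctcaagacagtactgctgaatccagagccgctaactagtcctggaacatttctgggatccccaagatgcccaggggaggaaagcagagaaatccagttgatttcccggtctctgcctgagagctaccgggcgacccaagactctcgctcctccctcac
Ccdc39, chr3:33844261-33844560, minus: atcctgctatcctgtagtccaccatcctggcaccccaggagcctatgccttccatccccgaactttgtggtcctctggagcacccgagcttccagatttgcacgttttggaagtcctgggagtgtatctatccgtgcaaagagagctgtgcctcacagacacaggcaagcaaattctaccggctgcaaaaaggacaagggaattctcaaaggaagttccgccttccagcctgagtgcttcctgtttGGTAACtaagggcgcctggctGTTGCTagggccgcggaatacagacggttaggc

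Dnah9 held GTTGCT on the other strand, 75 bases before its start. Ccdc39 held GTTACC on the other strand, 4 bases before its start, and GTTGCT on its own strand, 17 bases after it. Dnah11 held TGTTTA on the other strand, 186 bases before its start, and Gm12296 held none of the 5 words. Any of the RFX words occurred in 35.8% of the 32817 windows of the table and in 82.5% of 103 windows of listed cilium genes, and TGTTTA in 13.4% and 18.5%. A match describes letters in these windows and is no site. The last 50 bases of the Dnah9 window and the last 28 of the Gm12296 window fall within the 495 shared bases, so reads there belong to the stretch that both rows contain.

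Foxj1 has no gene across from it, and its row had low depth, 39 to 123 counts per library. Whether that row holds reads of its own strand is not known. It had 36.0, 30.2, 32.6 and 37.7 CPM in KDP20 day 10, 25.9, 21.6, 25.2 and 19.6 CPM in KDP20 day 5, and 32.4, 34.4, 38.6 and 24.0 CPM in vehicle. Every day 10 library lay above every day 5 library, and vehicle overlapped both. Means were 34.1 ± 3.36 CPM in KDP20 day 10, 23.1 ± 2.97 CPM in KDP20 day 5 and 32.3 ± 6.12 CPM in vehicle (SD, n = 4 each). The edgeR quasi-likelihood test with Benjamini-Hochberg adjustment passed Foxj1 in no comparison. Its log2 fold change was 0.08 (SE 0.20, adjusted p = 0.848) for day 10 against vehicle, -0.48 (SE 0.20, adjusted p = 0.236) for day 5 against vehicle and 0.56 (SE 0.20, adjusted p = 0.0822) for day 10 against day 5. In bulk tissue, fewer ciliated cells and less RNA per ciliated cell cannot be told apart, for this and the other cilium genes below. Libraries also differed in CT010467.2 share and GC slope, and whether any row follows ciliated cells was not tested.

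Tppp3, a tubulin polymerization-promoting protein used as a marker of ciliated airway cells, separated the 2 KDP20 groups. It had 105, 124, 102 and 124 CPM in KDP20 day 10, 51.4, 69.7, 72.4 and 48.4 CPM in KDP20 day 5, and 142, 82.2, 79.2 and 98.7 CPM in vehicle. All 4 day 5 libraries lay below all 8 of the others, and vehicle replicate 2 was the highest library of all. Tppp3 rose at day 10 relative to day 5, with means of 114 ± 11.8 and 60.5 ± 12.3 CPM (SD, n = 4 each). The log2 fold change was 0.91 (SE 0.18, adjusted p = 0.00407, edgeR quasi-likelihood test with Benjamini-Hochberg adjustment). Against the vehicle mean of 100.5 ± 28.9 CPM, the log2 fold change was 0.18 at day 10 (SE 0.18, adjusted p = 0.591) and -0.73 at day 5 (SE 0.18, adjusted p = 0.0587), and edgeR passed neither. The day 5 value sat close to the threshold of 0.05: with DESeq2 its adjusted p was 0.0118, with limma-voom 0.0437 and without vehicle replicate 5 in edgeR 0.0373.

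Dnah9, a heavy chain of the outer dynein arm that in human airway cilia sits in the distal part, was, like Tppp3, higher at day 10 than at day 5. Its own row had 64.8, 102, 92.9 and 115 CPM in KDP20 day 10, 45.4, 49.1, 52.3 and 57.9 CPM in KDP20 day 5, and 74.3, 54.8, 77.1 and 63.0 CPM in vehicle, from 102 to 201 counts. All day 10 libraries lay above all day 5 libraries, and day 10 replicate 1 was the lowest of its group and lay among the vehicle libraries. Dnah9 rose at day 10 relative to day 5, with means of 93.7 ± 21.2 and 51.2 ± 5.30 CPM (SD, n = 4 each). The log2 fold change was 0.87 (SE 0.18, adjusted p = 0.00428, same edgeR test and adjustment). Against the vehicle mean of 67.3 ± 10.3 CPM it was 0.48 at day 10 (SE 0.17, adjusted p = 0.0917) and -0.39 at day 5 (SE 0.18, adjusted p = 0.274), neither of which passed. Without day 10 replicate 1 the value against vehicle was 0.63 and did pass (adjusted p = 0.00491), in a fit that called 19.4% of all rows.

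Gm12296, annotated as a processed transcript, was the more abundant row of its pair. It had 309, 425, 473 and 377 CPM in KDP20 day 10, 352, 314, 276 and 282 CPM in KDP20 day 5, and 290.1, 247, 331 and 330.2 CPM in vehicle. The groups overlapped in every comparison. Its log2 fold change was 0.40 (SE 0.14, adjusted p = 0.0798) for day 10 against vehicle, 0.03 (SE 0.14, adjusted p = 0.941) for day 5 against vehicle and 0.37 (SE 0.14, adjusted p = 0.0959) for day 10 against day 5, none past the threshold in edgeR. Without day 10 replicate 1 the first and last were 0.51 and 0.47 and passed in edgeR (adjusted p = 0.00449 and 0.00755), and likewise after a GC correction of each library (0.57 and 0.48, adjusted p = 0.0329 and 0.0445). Per kilobase of exon, Gm12296 averaged 104 CPM and Dnah9 4.43 CPM over the 12 libraries. At the level of Gm12296, the 495 shared bases would hold 51.3 CPM, beside 70.7 CPM in the whole Dnah9 row. How many counts of the Dnah9 row lie in those bases is not known from these counts.

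Dnah11, the outer arm heavy chain that in human airway cilia sits in the proximal part, went the other way. Its own row had 28.8, 26.1, 25.7 and 32.6 CPM in KDP20 day 10, 70.9, 52.4, 36.9 and 45.8 CPM in KDP20 day 5, and 29.9, 30.2, 32.5 and 40.3 CPM in vehicle, from 38 to 167 counts. All day 10 libraries lay below all day 5 libraries, day 5 replicate 5 was the highest, and day 5 replicate 7 lay below vehicle replicate 6. Dnah11 fell at day 10 relative to day 5, with means of 28.3 ± 3.15 and 51.5 ± 14.4 CPM (SD, n = 4 each). The log2 fold change was -0.86 (SE 0.21, adjusted p = 0.0101, edgeR, Benjamini-Hochberg). Without day 5 replicate 5 it was -0.67 and did not pass (adjusted p = 0.0629). Against the vehicle mean of 33.2 ± 4.87 CPM it was -0.22 at day 10 (SE 0.21, adjusted p = 0.559) and 0.64 at day 5 (SE 0.20, adjusted p = 0.111). At the mean level of Cdca7l per kilobase, 72.8 CPM, the 642 shared bases would hold 46.7 CPM, beside 37.7 CPM in the whole Dnah11 row, and how many counts of that row lie there is not known. Cdca7l, a Myc-binding nuclear protein, had 201, 289.7, 293 and 289 CPM in KDP20 day 10, 194, 213, 194 and 211 CPM in KDP20 day 5, and 220.4, 255, 269 and 216 CPM in vehicle, with a log2 fold change of 0.40 for day 10 against day 5 (SE 0.13, adjusted p = 0.0593, edgeR) that passed without day 10 replicate 1 (0.52, adjusted p = 0.00177).

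Ccdc39, which with Ccdc40 forms the ruler that sets the spacing of inner arms and spokes along the axoneme, fell at day 10. Its own row had 245, 85.8, 122 and 92.5 CPM in KDP20 day 10, 200.5, 244, 238 and 236 CPM in KDP20 day 5, and 257, 249, 231 and 237 CPM in vehicle. Replicates 2, 3 and 5 of day 10 lay below all other libraries, while replicate 1 lay among the vehicle libraries, so that the groups overlapped. The log2 fold change was -0.83 against vehicle (SE 0.21, adjusted p = 0.0221) and -0.74 against day 5 (SE 0.21, adjusted p = 0.0280) in the edgeR quasi-likelihood test. For day 5 against vehicle it was -0.08 (SE 0.21, adjusted p = 0.890, edgeR). The 3 low libraries are those with the high CT010467.2 share and the high GC slope, and Ccdc39 has a GC content of 39.9%. Without them the log2 fold change was 0.01 against vehicle and 0.10 against day 5, and with that share as a model term 0.11 and -0.03. After a GC correction of each library it was -0.51 (edgeR adjusted p = 0.0969) and -0.50 (adjusted p = 0.0685). Leaving out 1 library at a time kept the call against vehicle in 2 of 8 fits, with log2 fold changes of -1.28 to -0.65. It was lost without day 10 replicate 2, 3 or 5 or vehicle replicate 2, 4 or 6. The call against day 5 was lost without day 10 replicate 2, 3 or 5 or day 5 replicate 6, 7 or 8.

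**Figure D1:**
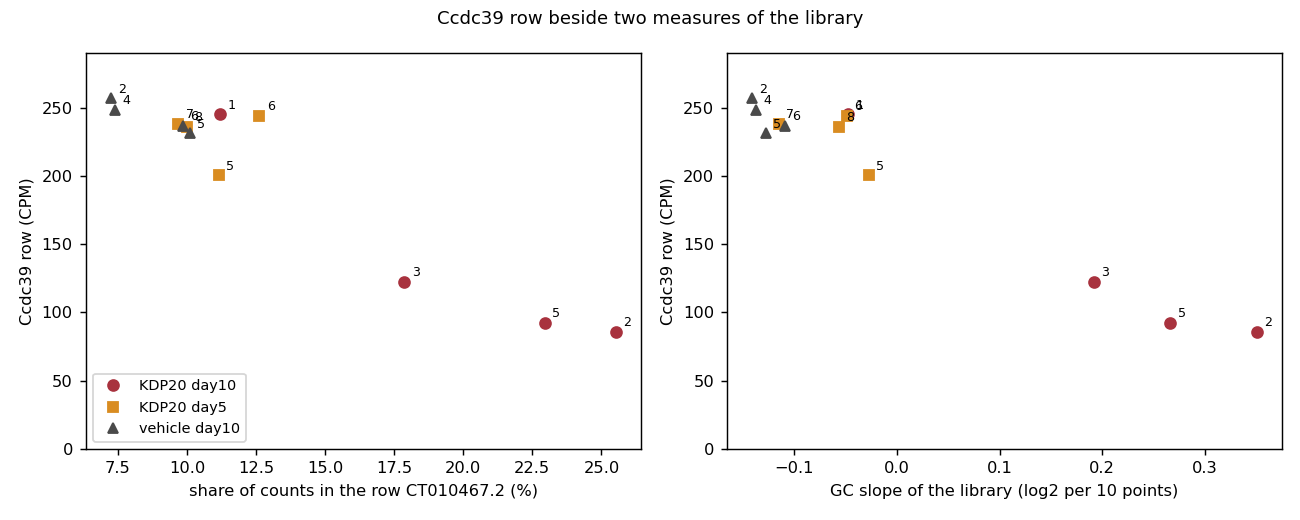
The level of the Ccdc39 row in CPM (vertical axes) is plotted for 12 libraries against the share of counts in the row CT010467.2 (left, percent) and the GC slope of the library (right, log2 per 10 points of GC). Numbers are replicate labels, and KDP20 day 10 replicates 2, 3 and 5 stand apart at 85.8 to 122 CPM with the highest shares and slopes.

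Ttc14, a tetratricopeptide repeat protein whose row faces Ccdc39, has a GC content of 38.2%. It had 499, 430.5, 604 and 532 CPM in KDP20 day 10, 516, 485, 535 and 473 CPM in KDP20 day 5, and 544, 615, 582 and 591 CPM in vehicle. Day 10 overlapped both other groups, with its replicate 2 the lowest of the 12 libraries, and all day 5 libraries lay below all vehicle libraries. No comparison passed in edgeR, with log2 fold changes of -0.17 (SE 0.12, adjusted p = 0.396) for day 10 against vehicle, -0.21 (SE 0.12, adjusted p = 0.389) for day 5 against vehicle and 0.04 (SE 0.12, adjusted p = 0.880) for day 10 against day 5. After the GC correction they were 0.26, -0.13 and 0.39 (edgeR adjusted p = 0.284, 0.676 and 0.0589). At the mean level of Ttc14 per kilobase, 50.8 CPM, the 1256 shared bases would hold 63.8 CPM, beside 203 CPM in the whole Ccdc39 row.

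**Figure D2:**
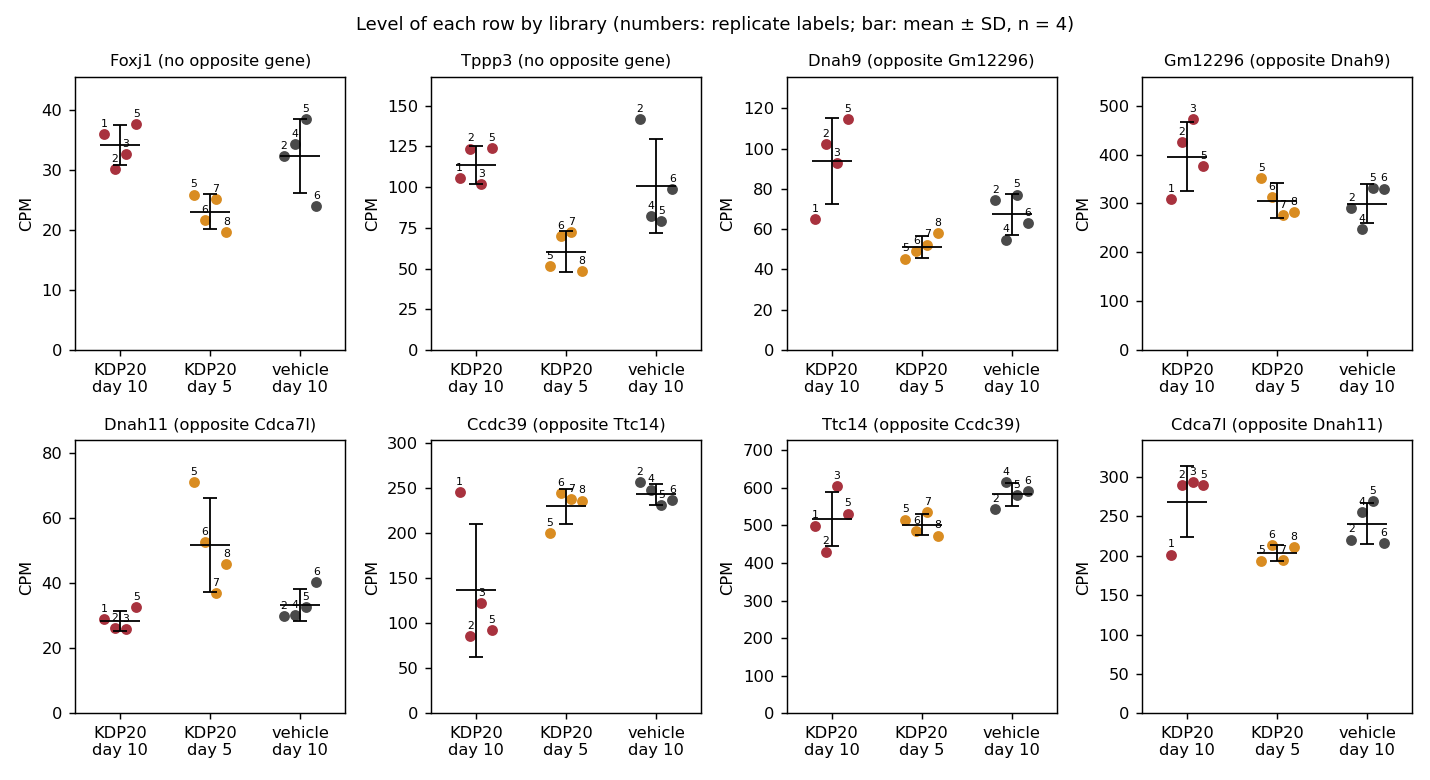
Each panel plots 1 row, with CPM on a vertical axis from 0 and the 3 groups along the horizontal axis. Points are libraries with their replicate labels, and bars are mean ± SD (n = 4), with KDP20 day 5 lowest for Foxj1, Tppp3 and Dnah9 and highest for Dnah11, and 3 of 4 KDP20 day 10 libraries low for Ccdc39.

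Read together, 1 of the 7 rows was called for day 10 against vehicle (Ccdc39, lower), beside 7.08% of all tested rows (3.93% higher and 3.15% lower), and 0 were called for day 5 against vehicle, beside 0.66% (0.41% higher and 0.25% lower). At an unadjusted edgeR p under 0.05, day 5 against vehicle held 2144 of 13181 rows (16.3%) and 4 of the 7, namely Foxj1, Tppp3, Dnah9 and Dnah11. DESeq2 called 2 of the 7 there, beside 3.88% of all rows, and limma-voom 1, beside 2.15%. For day 10 against day 5, 4 of the 7 were called, Tppp3 and Dnah9 higher and Dnah11 and Ccdc39 lower, beside 10.1% of all tested rows (4.66% higher and 5.49% lower). The called rows moved in both directions. Since the 7 were chosen with earlier results of these data known, the shares beside them are no test of an excess. The 5 rows named for cilium genes have the levels 49.5 CPM per kilobase for Tppp3, 27.3 for Ccdc39, 11.4 for Foxj1, 4.43 for Dnah9 and 2.61 for Dnah11, averaged over the 12 libraries.

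The day 10 against day 5 values divided by how far they rested on the 3 libraries with the high CT010467.2 share. With KDP20 day 10 replicate 1 alone against the 4 day 5 libraries, the log2 fold change was 0.80 for Tppp3, 0.64 for Foxj1 and -0.84 for Dnah11, close to the values with all libraries. It was 0.34 for Dnah9, 0.01 for Gm12296 and 0.10 for Ccdc39. A lone library is taken there to vary like the others, and 0 of the tested rows passed in edgeR, with 1142 at an unadjusted p under 0.05, so only sizes can be compared. After the GC correction, Tppp3, Dnah9 and Dnah11 were still called, at 0.74, 0.87 and -0.79. In fits that left out 1 library at a time, Tppp3 and Dnah9 passed in 8 of 8, at 0.81 to 1.01 and 0.75 to 1.01 on the log2 scale, Dnah11 in 7 of 8 and Ccdc39 in 2 of 8, while 4.5% to 19.5% of all tested rows passed.

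**Figure D3:**
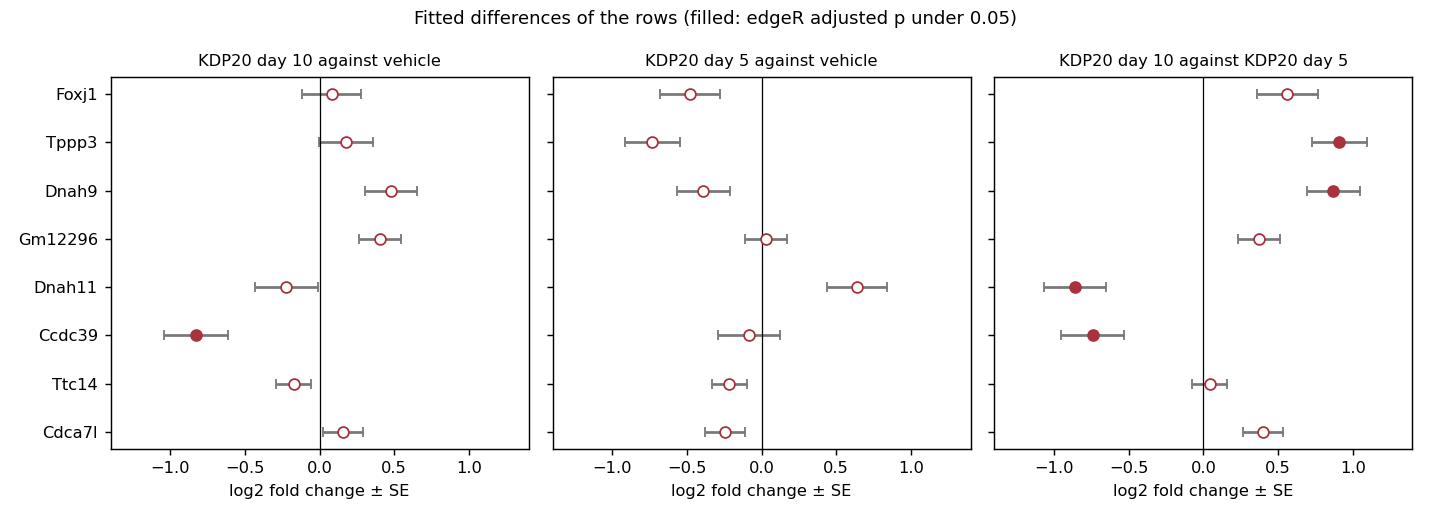
Fitted log2 fold changes (horizontal axes) with their SE are drawn for the 7 rows and Cdca7l in the 3 comparisons, and filled points have an edgeR adjusted p under 0.05. Day 10 against day 5 has 4 filled points, on both sides of 0, day 10 against vehicle has 1 (Ccdc39) and day 5 against vehicle none.

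A ratio within a pair does not depend on the scaling of a library, and the sum over a pair does not depend on which of the 2 rows a read was counted to. A read of the shared stretch counted to neither row would be missing from the sum, and the counting mode is not given. The Dnah9 row held 19.1 ± 3.08% of the pair's counts in KDP20 day 10, 14.5 ± 2.51% in KDP20 day 5 and 18.4 ± 1.82% in vehicle (SD, n = 4 each). Groups overlapped, and in 2-sided exact permutation tests over libraries the log2 ratio differed by 0.48 for day 10 against day 5 (p = 0.0571, adjusted 0.147), -0.42 for day 5 against vehicle (p = 0.0571, adjusted 0.147) and 0.07 for day 10 against vehicle (p = 0.714). The smallest p that 4 against 4 libraries allow is 0.0286. Adjustment ran over 18 tests, 3 pairs in 2 measures and 3 comparisons. The summed level of Dnah9 and Gm12296 was 489.7 ± 83.2 CPM in KDP20 day 10, 357 ± 30.6 CPM in KDP20 day 5 and 367 ± 46.9 CPM in vehicle, with exact permutation p = 0.0571 for day 10 against day 5 and 0.0857 for day 10 against vehicle.

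Of the 3 groups, KDP20 day 5 had the largest share of the Dnah11 row in its pair. The row held 9.75 ± 2.07% of the pair's counts in KDP20 day 10, 20.1 ± 4.74% in KDP20 day 5 and 12.3 ± 2.39% in vehicle (SD, n = 4 each). Day 5, at 16.0% to 26.8%, overlapped neither other group. The log2 ratio of Dnah11 over Cdca7l differed by -1.20 for day 10 against day 5 and by 0.84 for day 5 against vehicle, each at the smallest exact permutation p of 0.0286 (2-sided, adjusted 0.129), which does not pass after adjustment. The summed level of the pair was 297 ± 44.5 CPM in KDP20 day 10, 255 ± 16.0 CPM in KDP20 day 5 and 273 ± 24.2 CPM in vehicle, with overlapping groups. Most of that sum is Cdca7l, and its log2 difference for day 10 against day 5 was 0.21 (exact permutation p = 0.143).

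The Ccdc39 row held 32.9%, 16.6%, 16.8% and 14.8% of its pair's counts in the KDP20 day 10 libraries (95% Wilson intervals 30.6% to 35.4%, 14.1% to 19.5%, 14.8% to 19.1% and 12.8% to 17.1%), against 28.0% to 33.5% in KDP20 day 5 and 28.5% to 32.1% in vehicle. Replicate 1 of day 10 lay with the other groups and the remaining 3 lay below them. The log2 ratio differed by -0.78 against vehicle (exact permutation p = 0.143) and -0.91 against day 5 (exact permutation p = 0.0857). The summed level of Ccdc39 and Ttc14 was 653 ± 106 CPM in KDP20 day 10, 732 ± 28.9 CPM in KDP20 day 5 and 826 ± 27.4 CPM in vehicle. Both KDP20 groups lay below vehicle with no overlap, at 516 to 745 and 709 to 774 CPM against 801 to 864 CPM, with log2 differences of -0.35 and -0.17 and an exact permutation p of 0.0286 each (2-sided, adjusted 0.129).

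**Figure D4:**
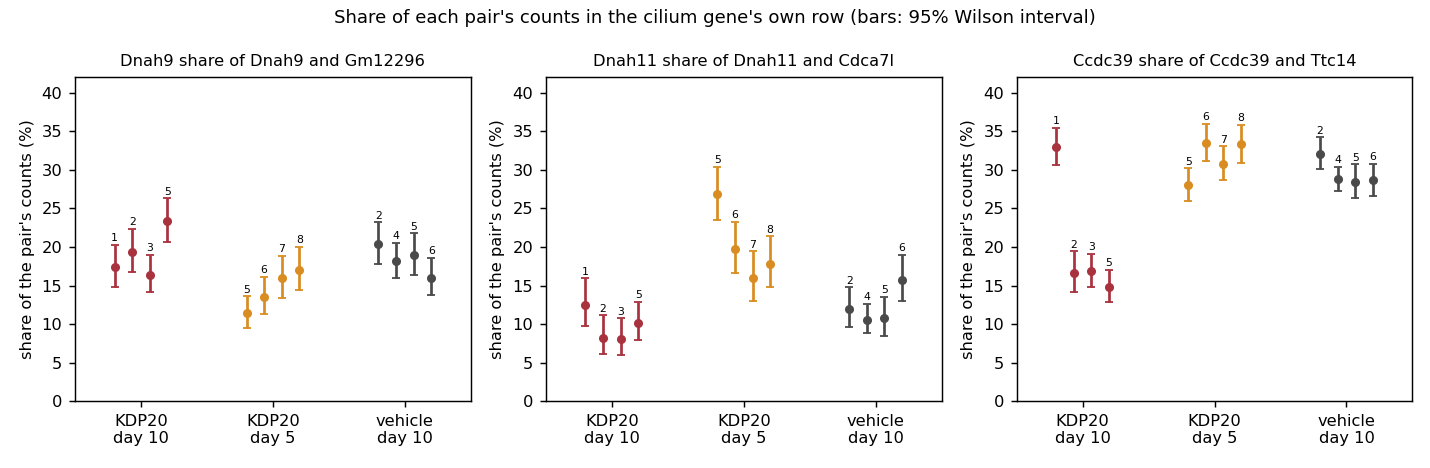
For each of the 3 pairs, the share of the pair's counts that fell in the row of the cilium gene (percent, from 0) is plotted per library with its 95% Wilson interval, by group and replicate label. Day 5 stands highest for Dnah11, at 16.0% to 26.8%, and KDP20 day 10 replicates 2, 3 and 5 stand lowest for Ccdc39, at 14.8% to 16.8%.

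The wider cilium programme was read from a list of 109 genes in 8 roles, also chosen with earlier results of these data known. By their own rows 62 passed the filter, 47 did not, with at most 21 counts in any library, and 2 of these (Dnaaf4 and Pih1d3) held 0 counts in every library. Among the 47, Tekt1, Dynlrb2, Sntn and Fam183b, which have no opposite gene, held 26, 11, 5 and 5 counts over the 12 libraries. Day 10 against vehicle called 4 of the 62 (6.45%, beside 7.08% of all tested rows), day 5 against vehicle 0 (beside 0.66%; 10 at an unadjusted p under 0.05, beside 16.3%, and 3 by DESeq2 and 1 by limma-voom after adjustment), and day 10 against day 5 called 8 (12.9%, beside 10.1%). The median log2 fold change of the 62 was 0.09, -0.11 and 0.21 in these comparisons, against -0.01, -0.03 and 0.01 over all tested rows. For day 10 against day 5, 42 of the 62 had a positive value and 20 a negative one. The summed level of the 109 own rows was 3167 to 3386 CPM in KDP20 day 10, 3003 to 3184 CPM in KDP20 day 5 and 3160.1 to 3300.3 CPM in vehicle.

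By role, the 6 tested transcription and centriole factors of multiciliated cells had the median furthest from 0 for day 10 against day 5, 0.58, with 1 call. This was Ccdc78, which takes part in centriole amplification, with 114 ± 14.3 CPM in KDP20 day 10 and 75.3 ± 9.95 CPM in KDP20 day 5 (SD, n = 4 each; log2 0.60, edgeR adjusted p = 0.0115). Of 7 outer arm rows 3 were called, Dnah9 and Dnah17 higher and Dnah11 lower. In the same comparison 10.1% of all tested rows were called. Dnah17, an outer arm heavy chain known from sperm flagella, rose at day 10 against both other groups, with 288 ± 32.2 CPM in KDP20 day 10, 195 ± 11.4 CPM in KDP20 day 5 and 212 ± 14.5 CPM in vehicle (log2 0.56 and 0.44, edgeR adjusted p = 0.00593 and 0.0309). Of 7 inner arm rows 1 was called, the heavy chain Dnah10, with 89.0 ± 15.7 CPM in KDP20 day 10 and 58.3 ± 15.0 CPM in KDP20 day 5 (log2 0.61, edgeR adjusted p = 0.0319). Leaving out 1 library at a time, the Dnah17 call against day 5 stood in 8 of 8 fits and that against vehicle in 2 of 8, those without day 10 replicate 1 or vehicle replicate 5. Without day 10 replicates 2, 3 and 5 the log2 value of Dnah17 was 0.19 against vehicle and 0.30 against day 5, and those of Ccdc78 and Dnah10 against day 5 were 0.35 and 0.24. Ccdc78 stood in 6 of 8, lost without day 5 replicate 5 or day 10 replicate 3, and Dnah10 in 2 of 8, those without day 10 replicate 1 or day 5 replicate 6.

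Of 7 rows for cytoplasmic assembly factors, Dnaaf2, which helps to preassemble dynein arms, was called at day 10 against vehicle and against day 5. It had 287 ± 74.7 CPM in KDP20 day 10, 198 ± 6.41 CPM in KDP20 day 5 and 169.9 ± 19.1 CPM in vehicle (log2 0.76 against vehicle and 0.53 against day 5, edgeR adjusted p = 0.00873 and 0.0290). Day 10 replicate 1, at 193 CPM, lay among the day 5 libraries. Of 4 rows of the ruler and dynein regulatory complex, Tcte1, a regulatory complex subunit, fell at day 10 to 393 ± 70.7 CPM, against 534 ± 70.9 CPM in vehicle (log2 -0.44, edgeR adjusted p = 0.0493), and Ccdc39 fell as given above. In the 8 tested radial spoke rows and the 6 central pair rows edgeR called 0 in each comparison. Of all tested rows it called 7.08% for day 10 against vehicle, 0.66% for day 5 against vehicle and 10.1% for day 10 against day 5. At an unadjusted p under 0.05 there were 1 or 2 spoke rows in each comparison and 0 or 1 central pair rows, beside 23.8%, 16.3% and 24.7% of all tested rows. Of the 17 tested microtubule and other axoneme rows, Tppp3 was the sole call, at day 10 against day 5. Leaving out 1 library at a time, the Dnaaf2 call against vehicle stood in 7 of 8 fits, lost without day 10 replicate 5. Its call against day 5 and the Tcte1 call stood in 1 of 8, the fit without day 10 replicate 1. Without day 10 replicates 2, 3 and 5 the log2 value of Dnaaf2 was 0.19 against vehicle and -0.034 against day 5, and that of Tcte1 was -0.17 against vehicle.

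Levels were set beside whether a gene lies across from the listed one, and what set the levels was not tested. Of the 42 listed genes with an opposite gene 34 passed the filter (81.0%), with a median of 2.96 CPM per kilobase of exon over all 42, against 28 of the 67 without one (41.8%), with a median of 0.624 CPM per kilobase. Across 46 pairs of a listed gene and an opposite row, the opposite row was the higher per kilobase in 38 and the own row in 8, with median levels of 35.7 and 3.24 CPM per kilobase. The 8 own rows with the highest mean CPM were Iqcg (86.0 CPM per kilobase), Tcte1 (157), Dnah17 (14.4), Dnaaf2 (64.4), Ccdc39 (27.3), Dnajb13 (65.8), Ccdc78 (43.9) and Tppp3 (49.5), and of these Tppp3 alone has no opposite gene. Among the 28 tested rows with no opposite gene, as for Foxj1 and Tppp3, the median log2 fold change was -0.03 for day 10 against vehicle, -0.31 for day 5 against vehicle and 0.32 for day 10 against day 5. In the last of these 20 were positive and 8 negative. There edgeR called 1, Tppp3, beside 10.1% of all tested rows, with 5 at an unadjusted p under 0.05, beside 24.7%. In the 34 with an opposite gene the median was 0.11, -0.05 and 0.14. The last comparison had 5 called higher and 2 lower, beside 4.66% and 5.49% of all tested rows. Day 10 against vehicle had 2 called higher and 2 lower in these 34 and 0 in the 28, beside 3.93% and 3.15%.

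**Figure D5:**
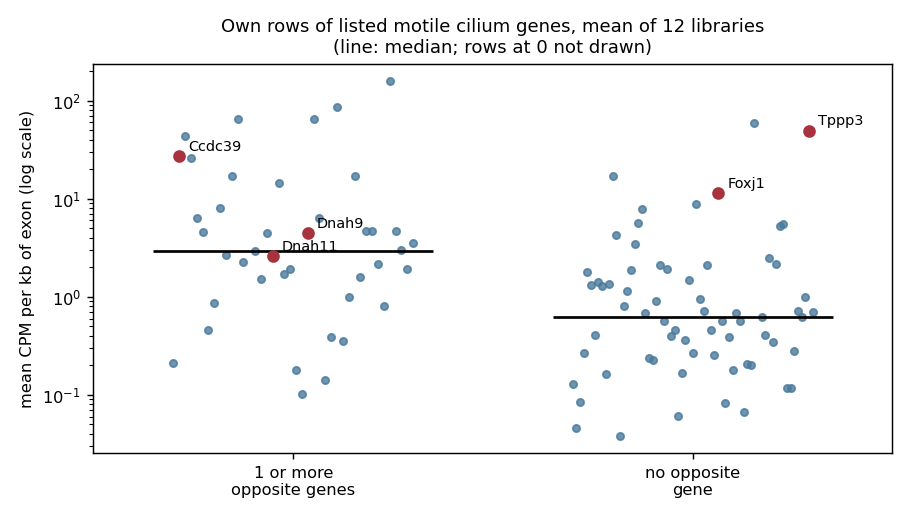
Mean CPM per kilobase of exon over 12 libraries (log scale) is plotted for the own row of each listed motile cilium gene with a count, split by whether a gene lies across from it, with lines at the group medians of 2.96 and 0.624. Tppp3 and Foxj1 lie high among the genes with no opposite gene, and Dnah9 and Dnah11 near the median of those with one.

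Of the 40 tested rows that lie opposite a listed cilium gene, 7 were called for day 10 against vehicle (17.5%, beside 7.08% of all tested rows), 1 for day 5 against vehicle (beside 0.66%) and 8 for day 10 against day 5 (20%, beside 10.1%). Gm12296, Ttc14 and Cdca7l were not among them. Higher at day 10 in both comparisons were Lyrm1 opposite Dnah3, Gm15841 opposite Cfap65, 5830444B04Rik opposite Cfap74, Gm15873 opposite Dnaaf3 and Gm34106 opposite Zmynd10. Gm15841 had 535 ± 155 CPM in KDP20 day 10, 274 ± 33.0 CPM in KDP20 day 5 and 324 ± 34.4 CPM in vehicle (SD, n = 4 each; log2 0.72 against vehicle and 0.96 against day 5, edgeR adjusted p = 0.0136 and 0.00190). Lyrm1 had 386, 822, 824 and 832 CPM in the KDP20 day 10 libraries, against 334 to 458 CPM in KDP20 day 5 and 418 to 539.5 CPM in vehicle. Here too day 10 replicate 1 lay with the other groups, and without replicates 2, 3 and 5 the log2 fold change of Lyrm1 was -0.27 against vehicle and -0.096 against day 5. In the same fits Gm15841 had 0.0011 and 0.24, Gm15873 0.17 and 0.059, 5830444B04Rik -0.034 and 0.24, and Gm34106 -0.071 and -0.17, against vehicle and day 5 in turn. Leaving out 1 library at a time, the calls of Lyrm1, Gm15841 and 5830444B04Rik against day 5 stood in 8 of 8 fits. Against vehicle, Gm15841 was lost without day 10 replicate 5, Gm15873 without day 10 replicate 3 or 5 or vehicle replicate 6, and the calls of Lyrm1, 5830444B04Rik and Gm34106 stood in 2 of 8 fits each, 1 of them without day 10 replicate 1. The calls of Gm15873 and Gm34106 against day 5 stood in 2 and 1 of 8, again with the fit without day 10 replicate 1 among them.

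Also called was Gm49719 opposite Rsph3b, higher than vehicle at day 10 (log2 0.56, edgeR adjusted p = 0.0324). Tmem151b, opposite Tcte1, was lower at day 10 than in vehicle and than at day 5 (log2 -0.44 and -0.60, edgeR adjusted p = 0.0478 and 0.00661), as was Tcte1 itself against vehicle. Gm26577, opposite Myb, was lower at day 10 than at day 5 (log2 -0.49, edgeR adjusted p = 0.0175). The sole call at day 5 against vehicle was Gm49727, opposite Cfap298, with 359 ± 37.8 CPM in KDP20 day 5 and 255 ± 17.7 CPM in vehicle (log2 0.49, edgeR adjusted p = 0.0498). Without day 10 replicates 2, 3 and 5, log2 values against vehicle were 0.16 for Gm49719 and -0.26 for Tmem151b, and against day 5 -0.42 for Tmem151b and -0.57 for Gm26577. The Tmem151b call against day 5 stood in 8 of 8 fits that left out 1 library, and Gm26577 was lost without day 5 replicate 6 or 7 or day 10 replicate 3. Gm49719 and Gm49727 stood in 2 of 8 fits each and Tmem151b against vehicle in 1 of 8. The fit without day 10 replicate 1 was among these for Gm49719 and Tmem151b, and for Gm49727 they were those without day 5 replicate 7 or vehicle replicate 5.

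The rows whose pattern over the 12 libraries was most like that of each member were found by the root mean square (RMS) difference of log2 CPM after centring each row, over 13180 rows. Nearest to Foxj1 were Flicr, Mapre3 and Akr1b3 (RMS 0.14 to 0.16), to Tppp3 Zfp710, Mrtfa and Slc6a8 (0.19 to 0.21), to Dnah9 Gm17552, Pisd-ps1 and Gm50151 (0.15 each) and to Gm12296 Edc3, Gm45133 and Prr3 (0.11 to 0.13). Nearest to Dnah11 were Rnaseh2a, Snw1 and Gm49172 (0.18 to 0.19), to Ccdc39 Gorasp2, Gm47168 and Txlng (0.09 to 0.14), and to Ttc14 Mns1, Nr2c2 and Gm15991 (0.09 to 0.10). Among the members and Cdca7l, Dnah9 ranked 207, Foxj1 487 and Cdca7l 994 in likeness to Tppp3, while Dnah11 ranked 11094 and Ccdc39 11622. In likeness to Foxj1, Cdca7l ranked 225 and Ttc14 533, before Dnah9 at 1380 and Tppp3 at 2131. In likeness to Dnah9, Cdca7l ranked 205 and Gm12296 636, before Tppp3 at 822 and Foxj1 at 967. Rows were centred but not scaled by their spread, so rows that vary little lie near one another whatever their direction. The libraries share groups, depth and GC slope, so likeness here is a description.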

How the data were processed

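The deposited values are counts per gene row in 12 libraries. Per the labels' protocols, a SMARTER mRNA-Seq kit turned total RNA into libraries, and per the submitters' processing notes the authors used FastQC, Trim Galore, STAR and HTSeq with mm10. Not given in the sources used here are versions, annotation release, counting mode and strand setting. Library totals were 1658420 to 3227138 counts.

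Rows were placed by identifier in GENCODE M21, and 2 rows counted as opposite when exons on the 2 strands overlapped by 50 bases or more. All 12 libraries entered 1 edgeR 4.0.16 quasi-likelihood fit (R 4.3.3; filterByExpr, TMM scaling), whose only model term was the group. The filter left 13181 of 55487 rows, over all of which p-values were adjusted by Benjamini-Hochberg, with calls at an adjusted p under 0.05. An SE is the size of a log2 fold change divided by the square root of its F statistic. The common biological coefficient of variation came to 0.213. Pair ratios (1 count added to each row) and pair sums were compared by 2-sided exact permutation in SciPy 1.17.1.

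On simulated counts for day 10 against vehicle, in 13181 rows, the fit called 53% of 100 rows changed 2-fold and 85% of 100 rows changed 4-fold. Of its calls, 5.48% fell on rows left alone. Whether these shares hold where libraries of a group differ together in many rows, as with GC slope at day 10, was not tested. The 5.48% is therefore not read as the false share among the calls reported above.

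Rows named are the members and Cdca7l, up to 8 called own rows and opposite rows of the cilium list per comparison with the smallest p, and the 3 rows most like each member. A single called opposite row is counted but not reported here by name. The members, the 109-gene list and the marker lists were chosen with earlier results of these data known. Alternatives were other scalings, filters and tests (DESeq2 1.42.0, limma 3.58.1), a fit of the 8 compared libraries, a block for the replicate number, the CT010467.2 share as a model term, a GC correction (loess, span 0.5) and leaving out each library. Leaving out KDP20 day 10 libraries 2, 3 and 5 was added after seeing the data.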

Additional observations from a re-analysis of the deposited data

Results flagged for a closer look

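KDP20 day 10 replicate 1 stood far from the other libraries of its group in 3 values. Cdca7l had 201 CPM there, against 289 to 293 CPM in the other 3 libraries, and the summed level of Dnah11 and Cdca7l was 229.9 CPM, against 316 to 322 CPM. The log2 ratio of Ccdc39 over Ttc14 was -1.02 in this library, against -2.52 to -2.30 in the others. In vehicle, replicate 2 stood apart in the same ratio, at -1.08 against -1.33 to -1.31. A gap of this size by Dixon's test arises by chance in about 1 in 20 groups, and 42 groups were tested.

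Taken against the same vehicle libraries, labelled day 10, KDP20 day 10 and KDP20 day 5 differed for 4 of the 7 rows in edgeR. Beside these stand 10.1% of all tested rows. The log2 difference was 0.91 for Tppp3, 0.87 for Dnah9, -0.86 for Dnah11 and -0.74 for Ccdc39. Since vehicle cancels, this is the comparison of day 10 with day 5 given above. No vehicle was labelled day 5, so it is no difference of day-matched effects.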

How the results depend on the processing

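Between day 10 and day 5, Tppp3 and Dnah9 stayed past the threshold under the other scalings, filters and tests, the 8 compared libraries alone, the replicate block and the GC correction, and Dnah11 under all of these but the block (adjusted p = 0.0720). None passed with the CT010467.2 share as a model term (the covariate), at 0.81, 0.45 and -0.98 on the log2 scale, or without KDP20 day 10 libraries 2, 3 and 5, where 2 and 0 of all rows passed. The depth of 38 to 201 counts per library for Foxj1, Dnah9 and Dnah11 limits what their rows can show. The cause of the changes below was not tested, and counts moved over all tested rows too, so nothing is read from them about the cilium rows. Of all rows, 7.08% were called for day 10 against vehicle, and 9.72% with DESeq2, 3.48% with the 8 libraries, 12.9% with the block, 3.06% with the GC correction and 0% with the covariate and without the 3 libraries. For day 5 against vehicle, 0.66% became 0.807% with no filter, 1.4% with a filter of 10 CPM, 3.88% with DESeq2, 2.15% with limma-voom, 5.22% with the 8 libraries, 0.25% with the block, 2.81% with the covariate and 0.958% with the GC correction. Between day 10 and day 5, 10.1% became 8.08% with the 8 libraries, 7.27% with the block, 7.47% with the GC correction, 0.0152% with the covariate and 0% without the 3 libraries.

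The count of the 7 rows called for day 10 against vehicle was 1, and became 2 with DESeq2 and 0 with the 8 compared libraries alone, with the covariate and without the 3 libraries. For day 5 against vehicle it was 0, and became 1 with no filter beyond 1 count, a filter of 10 CPM, limma-voom, the covariate and the GC correction, and 2 with DESeq2 and with the 8 libraries alone. For day 10 against day 5 it was 4, and became 0 with the covariate and without the 3 libraries.

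Of the listed own rows, 4 were called for day 10 against vehicle, and 1 with the 8 libraries alone, 7 with the replicate block, 0 with the covariate, 2 with the GC correction and 0 without the 3 libraries. For day 5 against vehicle, 0 became 1 with no filter, a filter of 10 CPM, limma-voom, the covariate and the GC correction, 3 with DESeq2 and 2 with the 8 libraries alone. For day 10 against day 5, 8 became 5 with the 8 libraries alone and with the block, and 0 with the covariate and without the 3 libraries. Of the opposite rows, the 7 calls for day 10 against vehicle became 2, 14, 0 and 0 with the 8 libraries, the block, the covariate and without the 3 libraries. The 1 call for day 5 against vehicle became 0 with no filter and with the block, 3 with DESeq2 and 2 with the 8 libraries. The 8 calls for day 10 against day 5 became 5 with the GC correction and 0 with the covariate and without the 3 libraries.

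Signs turned as follows, on the log2 scale. For day 10 against vehicle, the replicate block gave -0.011 for Foxj1. The covariate gave -0.047 for Dnah9, 0.11 for Ccdc39, -0.22 for Cdca7l, -0.20 for Gm34106 and -0.12 for Lyrm1. The GC correction gave -0.20 for Foxj1, -0.0033 for Tppp3 and 0.26 for Ttc14. Without the 3 libraries, values were -0.045 for Dnah9, 0.014 for Ccdc39, -0.25 for Cdca7l, -0.071 for Gm34106, -0.27 for Lyrm1 and -0.034 for 5830444B04Rik. For day 5 against vehicle, the covariate gave -0.034 for Gm12296 and 0.14 for Ccdc39. For day 10 against day 5, the covariate gave -0.11 for Gm34106 and -0.0014 for Dnaaf2, and leaving out the 3 libraries gave 0.095 for Ccdc39, -0.0080 for Ttc14, -0.013 for Cdca7l, -0.17 for Gm34106, -0.10 for Lyrm1 and -0.034 for Dnaaf2. With unscaled library totals, the summed level of Dnah11 and Cdca7l differed by -0.10 for day 10 against vehicle and -0.22 for day 5 against vehicle (exact permutation p = 0.0286).

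Leaving out 1 library at a time, the 7 rows gave 0 to 3 calls for day 10 against vehicle, 0 to 1 for day 5 against vehicle and 3 to 5 for day 10 against day 5. The listed own rows gave 0 to 9, 0 to 1 and 4 to 11, and the opposite rows 0 to 16, 0 to 1 and 4 to 18. Over all rows the share was 0.686% to 19.4%, 0.0367% to 1.51% and 4.5% to 19.5%. Without day 10 replicate 1, Dnah9 (0.63, adjusted p = 0.00491) and Gm12296 (0.51, adjusted p = 0.00449) passed in edgeR against vehicle. Foxj1 ran from -0.034 to 0.18 against vehicle at day 10, Gm12296 from -0.041 to 0.094 against vehicle at day 5, and Ttc14 from -0.045 to 0.12 for day 10 against day 5. The pair ratio of Dnah9 ran from -0.060 to 0.15 for day 10 against vehicle, and the pair sum of Dnah9 from -0.12 to 0.020 for day 5 against vehicle. The pair ratio of Dnah11 ran from 0.65 to 0.98 for day 5 against vehicle and from -1.34 to -1.01 for day 10 against day 5, and the pair sum of Ccdc39 from -0.42 to -0.25 for day 10 and -0.20 to -0.15 for day 5 against vehicle, where 3 against 4 libraries cannot reach a permutation p of 0.05.

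Nothing in the labels states that replicate numbers pair the samples, and the few same-numbered libraries here cannot settle it. Same-numbered libraries had correlations of -0.04 and 0.12 (day 10 against vehicle), 0.02 and -0.09 (day 5 against vehicle) and 0.01 (day 10 against day 5) between their deviations from group means. With the replicate block, Tppp3 was 0.94 (adjusted p = 0.0327) and Dnah9 1.16 (adjusted p = 0.00836) for day 10 against day 5.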
